A study of Caenorhabditis elegans with 2 samples.

Results

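The proteins of the mitochondrial ribosome and most proteins of the respiratory chain are encoded in the nucleus, and 115 such genes were examined here among the 19973 nuclear protein-coding genes of the nematode Caenorhabditis elegans. They were picked out by gene symbol and not by their own values, although earlier results of these data were known when the set was drawn up. Of the 115 genes, 41 carry symbols for the large subunit of the mitochondrial ribosome (mrpl genes) and 29 symbols for the small subunit (mrps genes). Large and small subunit below mean these symbols, and the place of each protein in the ribosome was not checked. The other genes belong to complex I (8: nuo-1 to nuo-6, lpd-5 and gas-1), complex II (5), complex III (7), cytochrome c (1, cyc-2.1), complex IV and its assembly (15 cox genes) and ATP synthase (9: the atp, asb and asg genes). Symbols of the form cco-N were also in the choice, and 0 genes of the annotation carry one.

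The mitochondrial ribosome translates the few proteins that mitochondrial DNA still encodes, nearly all of them core subunits of the respiratory complexes. Complexes I to IV pass electrons from NADH and succinate to oxygen, and all of them but complex II pump protons. ATP synthase uses the proton gradient to make ATP. The remaining subunits are made in the cytosol and imported, so that respiration needs the products of 2 genomes in matched amounts. In C. elegans, lowered expression of several of these genes, such as isp-1, cyc-1, nuo-6 and mrps-5, is known to lengthen life.

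ChIP-seq, the sequencing of DNA fragments that an antibody pulls down together with a protein, was used to find where NHR-28 sits on the genome. NHR-28 is one of the many nuclear hormone receptors of the worm, transcription factors of a type that often responds to small lipid-like ligands. Both libraries, biological replicates 1 and 2, came from strain OP317, which has the unc-119 allele ed3 on chromosome III and the integrated insertion wgIs317 with eGFP-tagged nhr-28. Each was made from whole embryos of mixed stages, pooled from both sexes, with fragments of 150 to 350 bp, so that all cell types are averaged. They form 1 group: no other strain or stage was analysed here, and the control that the authors called regions against was not used here as a sample. The comparison throughout is therefore between these genes and all nuclear protein-coding genes in the same lists.

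The authors deposited lists of regions on the genome build ce11, each with a signal, their measure of strength against the control on the scale of that list, and a summit, the position of highest signal. The strictest list holds 238 regions kept by an irreproducible discovery rate (IDR) filter, which asks that a region rank alike in both replicates. The relaxed lists keep background as well, with 30000 regions for both replicates pooled, 14746 for replicate 1 and 4556 for replicate 2. Only 349 regions of replicate 1 and 236 of replicate 2 had a q-value of at most 0.05, so that most relaxed regions are weak candidates. A gene was said to have a region when a summit lay within 1000 bp of one of its annotated 5' ends, and its strongest region was taken. Such an assignment is by distance alone, and no expression was measured. At nhr-28 itself no list had a region within 1000 bp, and the closest pooled summit lay 22774 bp away. At unc-119 the pooled signal was 21.4 and the replicate 1 signal 16.7, with no replicate 2 region. No source used here gives read totals, and the depth behind each value is unknown.

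In every list a larger share of these genes than of all genes had a region, but in the strictest list this rested on 2 genes. An IDR peak lay within 1000 bp of 2 of the 115 genes (1.74%, Wilson 95% interval 0.478 to 6.12), against 0.861% of all nuclear protein-coding genes. That interval includes the share of all genes. In the pooled list 89 genes had a region (77.4%, interval 68.9 to 84.1), against 53.6% of all genes. In replicate 1 the number was 49 (42.6%, against 32.6% of all genes), and in replicate 2 it was 32 (27.8%, against 13.2%). A region in the pooled list and in both replicate lists was found for 19 genes (16.5%, interval 10.8 to 24.4), against 7.93% of all genes. These intervals cover counting error only. Neighbouring genes can share a region, so genes are not independent of each other.

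The share was above that of all genes among the 1000 and the 5000 strongest pooled regions as well. Of the 1000 strongest pooled regions, at least 1 lay near 15 of these genes (13.0%), against 3.82% of all genes, and among the 5000 strongest the number was 31 (27.0%, against 14.4%). At 7 of the 15 genes the pooled summit was nearer to the 5' end of another gene. Counting only the nearest gene, a setting added after the data were seen, 8 genes remained (6.96%, against 2.88% of all genes). The strongest pooled region of a gene had a median signal of 19.8 over the 89 genes (quartiles 16.8 and 24.5), against 18.2 over the 10713 genes with a region (quartiles 15.3 and 22.9). Both quartiles and the median near these genes were slightly above those near all genes, and the interquartile ranges overlap.

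**Figure D1:**
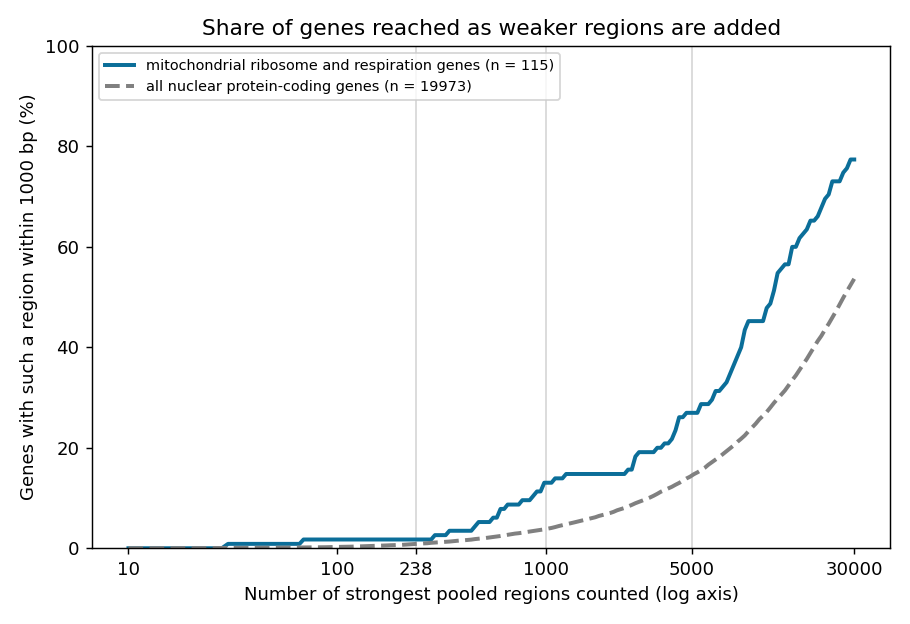
Share of genes (%, vertical axis) with a pooled region within 1000 bp, as regions are added from the strongest to the weakest (number of regions on a log axis). The solid line is the 115 mitochondrial ribosome and respiration genes and the dashed line all 19973 nuclear protein-coding genes; the lines reach 77.4% and 53.6% at 30000 regions, and grey lines mark 238, 1000 and 5000 regions.

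Many pooled regions had no counterpart in 1 or both replicate lists. Of the 89 genes with a pooled region, 28 had a region in replicate 1 only (31.5%, against 37.4% of all genes with a pooled region), 13 in replicate 2 only (14.6%, against 8.68%) and 29 in neither (32.6%, against 39.2%). When the pooled summit itself was required to fall inside a region of both replicates, 16 genes remained (13.9%), against 5.14% of all genes. Both replicate summits lay within 150 bp of the pooled one at 14 genes (12.2%), against 4.35%. A replicate 1 region with a q-value of 0.05 or less was found near 2 genes (1.74%, against 1.24% of all genes) and a replicate 2 region of that kind near 4 genes (3.48%, against 0.816%). Within 1000 bp, mrpl-23 alone had both. The 4 genes were mrpl-23, mrpl-45, mrps-28 and cyc-2.1. At the first 3 of them another gene had the 5' end nearest to the pooled summit. The cyc-2.1 region was also the one taken for the cytosolic ribosomal protein gene rpl-20.

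Both IDR peaks lay at the far edge of the 1000 bp window, next to another gene. The peak of mrps-28, a gene of the small mitochondrial ribosomal subunit, spans chrV:19643090-19643413 with a pooled signal of 123, and its summit is 987 bp upstream of the gene. It falls in an intron of Y43F8C.7, whose 5' end is nearer, and within 200 bp of the snoRNA gene Y43F8C.22 on the minus strand (chrV:19643050-19643187). The replicate 2 signal there was 52.4. Replicate 1 had a region at the same place with a signal of 76.6, but its summit was 1008 bp from mrps-28, so that the gene is counted as without one in that list. The peak of mrpl-23, a gene of the large subunit, spans chrI:6210837-6211160 with a pooled signal of 91.3, a replicate 1 signal of 42.9 and a replicate 2 signal of 48.1. Its summit lies 886 bp downstream of the 5' end, beyond the gene, in an intron of ech-1.2, which is the nearest gene. Counting a region only for the gene with the nearest 5' end, 0 of the 115 genes had an IDR peak, against 0.596% of all genes.

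Complex IV genes had the strongest regions that were found in both replicates near their own 5' ends. The gene cox-5B, for a structural subunit of cytochrome c oxidase, had a pooled signal of 51.3, the 283rd highest of all pooled regions, with 34.5 in replicate 1 and 21.3 in replicate 2. Its summit was 54 bp upstream of the 5' end, and the replicate 1 region had a q-value of 0.0127. The gene cox-5A, for another structural subunit, had a pooled signal of 47.4, with 26.1 in replicate 1 and 19.2 in replicate 2, at 294 bp upstream. Neither summit had the 5' end of another protein-coding gene within 1000 bp.

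The subunit genes cox-6B and cox-6A followed, with pooled signals of 39.5 and 35.6. At cox-6B the signal was 16.3 in replicate 1 and 19.8 in replicate 2, but the nearest 5' end was that of Y71H2AM.20. The pooled summit lay in an intron of cox-6B itself. At cox-6A it was 18.1 and 18.3, with the pooled summit 789 bp upstream of the 5' end. The replicate 2 summit lay 160 bp from the pooled one, and no replicate 2 region covered the pooled summit. The other cox genes were far lower: cox-4, for a further structural subunit, had a pooled signal of 23.3 with no replicate region, and the assembly genes cox-10, cox-11, cox-14, cox-15, cox-16 and cox-17 ran from 13.5 to 18.1. The structural genes cox-6C and cox-7C had 19.6 and 17.6. In all, 13 of the 15 cox genes had a pooled region (86.7%, against 53.6% of all genes), and 4 had one in every relaxed list (26.7%, against 7.93%). None of the 4 encodes an assembly factor.

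All 9 genes of ATP synthase had a pooled region (against 53.6% of all genes), 8 had one in replicate 1 (88.9%, against 32.6%) and 5 in replicate 2 (55.6%, against 13.2%). The 4 genes with a region in every relaxed list (44.4%, against 7.93% of all genes) were atp-2, for the catalytic beta subunit (pooled 34.3, replicate 1 17.9, replicate 2 15.8), asb-2, for subunit b of the stalk (33.5, 14.3 and 20.9), atp-3, for the subunit that joins the stalk to the catalytic head (31.9, 16.2 and 18.6), and asg-2, for subunit g (23.1, 15.2 and 13.8). In each of them both replicate summits lay within 150 bp of the pooled one. At atp-2 the nearest 5' end was that of C34E10.10, and the atp-3 summit lay in the non-coding RNA gene F27C1.17. The paralog asb-1 had a pooled signal of 21.9, with 22.7 in replicate 1 and no replicate 2 region. The gene for the alpha subunit, atp-1, had 14.8 in the pooled list, below the median of 18.2 over all genes, with 16.7 in replicate 2 at the same site and no replicate 1 region. The pooled median over the 9 genes was 23.1, the highest of the roles with more than 1 gene.

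In complexes I to III, 1 of 20 genes had a region in every relaxed list (5%, against 7.93% of all genes). In complex I, 5 of the 8 genes chosen by symbol had a pooled region (62.5%, against 53.6% of all genes) and 0 had one in every list. These 8 do not stand for the whole complex. Of 20 complex I genes with other symbols, 17 had a pooled region (85%) and 5 had one in every relaxed list (25%). The flavoprotein subunit gene nuo-1 had a pooled signal of 24.1 at 174 bp downstream of the 5' end, with 11.5 in replicate 1 only. The accessory subunit gene lpd-5 had 16.8 and no replicate 1 region. Its strongest replicate 2 region, 13.9, lay 1063 bp from the pooled summit, and a weaker one of 13.8 covered that summit. At gas-1, for a core subunit, no list had a region, and the closest pooled summit was 8475 bp away.

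All 5 complex II genes had a pooled region (against 53.6% of all genes), with signals from 13.7 to 20.4, and again 0 had one in every list. The cytochrome b subunit gene mev-1 had 19.5 in the pooled list with no replicate region. The iron-sulfur subunit gene sdhb-1 had 13.7, at a summit nearer to cup-15. At sdha-1, for the flavoprotein subunit, the pooled signal was 16.8 and the summit lay within 200 bp of the snoRNA gene D2021.6. In complex III, 4 of 7 genes had a pooled region (57.1%, near the 53.6% of all genes). The gene for the Rieske iron-sulfur protein, isp-1, was the only one of the 7 with a region in every list (pooled 19.9, replicate 1 11.9, replicate 2 14.3), and the replicate 1 summit lay 196 bp from the pooled one. The cytochrome c1 gene cyc-1 had no region, with the closest pooled summit 1453 bp away.

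Cytochrome c, the mobile electron carrier between complexes III and IV, is represented by cyc-2.1. It had a pooled signal of 33.2 and 24.7 in replicate 1. The pooled summit was 83 bp upstream of the nearer of its 2 annotated 5' ends, in an intron of cyc-2.1 itself. The replicate 2 value, 37.4, belongs to a different place, 1460 bp from the pooled summit, and is the same region that was taken for the cytosolic ribosomal protein gene rpl-20, whose pooled signal was 122. No replicate 2 region covered the pooled summit of cyc-2.1.

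**Figure D2:**
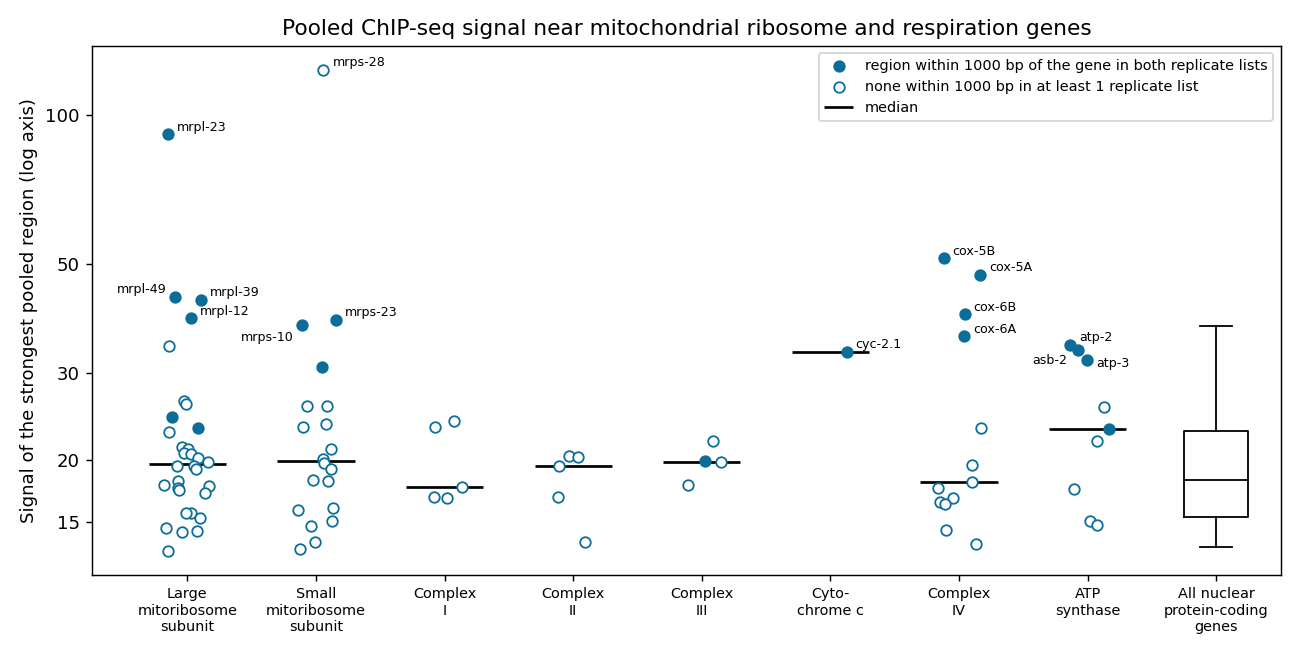
Signal of the strongest pooled region within 1000 bp of each gene (log axis), by role; points are genes, black lines role medians, and the box shows the quartiles and median of the 10713 nuclear protein-coding genes with a region, with whiskers at the 5th and 95th percentiles. Filled points are the 19 genes with a region in both replicate lists as well; mrps-28 and mrpl-23 lie highest, followed by cox-5B and cox-5A.

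Among the mitochondrial ribosome genes, 52 of 70 had a pooled region (74.3%, against 53.6% of all genes) and 9 had one in every relaxed list (12.9%, against 7.93%). Among the 45 respiration genes the numbers were 37 (82.2%) and 10 (22.2%). The difference between the shares of mitochondrial ribosome and respiration genes was not tested. Of the 41 mrpl genes, 32 had a pooled region (78.0%) and 6 had one in every list (14.6%). Of the 29 mrps genes, the numbers were 20 (69.0%) and 3 (10.3%). After mrpl-23, the strongest of those in every list were mrpl-49 (pooled 42.8, replicate 1 21.5, replicate 2 21.5) and mrpl-39 (42.2, 21.5 and 25.6). The region of mrpl-49 also lies within 1000 bp of the 5' end of rpl-28, a cytosolic ribosomal protein gene, and that of mrpl-39 is nearest to gly-7.

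The remaining large-subunit genes in every list were mrpl-12 (38.8, 22.97 and 15.4), mrpl-37 (24.5, 11.0 and 16.1) and mrpl-15 (23.3, 16.9 and 13.9). At mrpl-12 and mrpl-37 another gene, Y39A1A.22 and lin-38, had the nearest 5' end, and at mrpl-15 the replicate 2 summit was 298 bp from the pooled one. In the small subunit mrps-23 had 38.5, 15.2 and 22.7, mrps-10 had 37.6, 19.4 and 19.1, and mrps-18B had 30.9, 14.97 and 17.1. The region of mrps-23 overlaps an intron of prp-40. At mrps-10 the strongest replicate 1 region lay 697 bp away, and a second replicate 1 region of 18.8 covered the pooled summit.

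The 5 strongest pooled regions outside these were found in 1 replicate each. They were at mrpl-45 (34.1, with 31.7 in replicate 2), mrpl-18 (26.3, with 16.8 in replicate 1), mrpl-28 (26.0, with 16.6 in replicate 1), mrps-25 (25.8, with 24.4 in replicate 1) and mrps-34 (25.8, with 18.5 in replicate 2). At mrpl-45, mrpl-18 and mrps-25 another gene had the nearest 5' end (Y119D3B.12, C14B9.8 and Y55F3AM.13). The gene mrps-5 had a pooled signal of 20.1 and 10.4 in replicate 1. The gene mrpl-1 had 19.2, at a region it shares with mrps-24. Another shared region lies between asg-1 and mrps-15, so that the 89 genes rest on 87 regions.

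Of the 115 genes, 26 had no pooled region. Of these, mrpl-50 and mrps-17 had a region in replicate 1 alone, with signals of 11.3 and 17.4, and the other 24 had none in any list. Those 24 included the mrpl genes mrpl-4, mrpl-21, mrpl-30, mrpl-32, mrpl-35, mrpl-36, mrpl-51 and mrpl-54. Among the mrps genes they were mrps-2, mrps-6, mrps-18A, mrps-18.C, mrps-21, mrps-22, mrps-26 and mrps-30. The rest were nuo-3, nuo-4 and gas-1 of complex I, cyc-1, ucr-11 and ucr-2.3 of complex III, and the assembly genes cox-18 and cox-19. The closest pooled summit to any of the 26 was 1013 bp from mrpl-21, just outside the window, and the farthest 8475 bp from gas-1. Just inside it was mrps-28 at 987 bp. The pooled regions of the genes not given above by value had signals between 13.1 (mrpl-44) and 25.6 (atp-5), and each lacked a region in at least 1 replicate.

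The sequence under 6 of these pooled summits is shown to set actual bases beside the motif counts below: the 4 regions with GAGAGA among the 19 genes with a region in every relaxed list, the 1 with AGGTCA, and the region between mrpl-49 and rpl-28, which holds neither. The bases are from the RefSeq sequence of WBcel235, the same build as ce11, reach 100 bp to either side of the summit, run in the direction of the member gene, and stop where an annotated exon begins. Capitals mark a match to GAGAGA or AGGTCA, or to their reverse complements TCTCTC and TGACCT. The stretches are chrIII:12905097-12905297 on the plus strand for cox-5A, chrIII:9523688-9523884 on the minus strand for mrps-23, chrX:4469442-4469642 on the plus strand for asb-2, chrIV:4748450-4748632 on the minus strand for cyc-2.1, chrII:13575585-13575785 on the minus strand for mrpl-37 and chrV:12728343-12728543 on the plus strand for mrpl-49.
cox-5A: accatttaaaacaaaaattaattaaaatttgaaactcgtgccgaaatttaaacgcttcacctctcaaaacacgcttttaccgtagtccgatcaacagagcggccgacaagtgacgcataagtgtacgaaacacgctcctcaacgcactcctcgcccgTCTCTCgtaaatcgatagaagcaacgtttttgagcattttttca
mrps-23: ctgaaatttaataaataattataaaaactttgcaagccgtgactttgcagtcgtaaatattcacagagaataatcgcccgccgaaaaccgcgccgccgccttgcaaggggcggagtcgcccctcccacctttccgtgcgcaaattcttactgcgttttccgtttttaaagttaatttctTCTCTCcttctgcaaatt
asb-2: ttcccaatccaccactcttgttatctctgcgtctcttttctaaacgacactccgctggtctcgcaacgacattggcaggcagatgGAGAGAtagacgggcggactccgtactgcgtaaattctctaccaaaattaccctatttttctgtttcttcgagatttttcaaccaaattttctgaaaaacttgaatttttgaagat
cyc-2.1: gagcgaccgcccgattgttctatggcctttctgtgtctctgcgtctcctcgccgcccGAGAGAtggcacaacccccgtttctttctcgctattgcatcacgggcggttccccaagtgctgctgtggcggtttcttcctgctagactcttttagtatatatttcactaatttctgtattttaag
mrpl-37: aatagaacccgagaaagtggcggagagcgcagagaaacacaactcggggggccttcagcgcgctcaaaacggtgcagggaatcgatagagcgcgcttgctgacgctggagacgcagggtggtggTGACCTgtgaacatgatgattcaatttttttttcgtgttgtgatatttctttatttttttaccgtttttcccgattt
mrpl-49: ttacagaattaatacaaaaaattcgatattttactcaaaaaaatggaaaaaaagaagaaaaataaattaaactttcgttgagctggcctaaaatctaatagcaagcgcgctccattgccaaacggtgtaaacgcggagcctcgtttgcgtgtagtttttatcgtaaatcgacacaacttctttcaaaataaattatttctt
The match began 57 bp after the summit in cox-5A, 83 bp after it in mrps-23, 15 bp before it in asb-2, 43 bp before it in cyc-2.1 and 24 bp after it in mrpl-37.

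The 7 short motifs searched occurred at these summits at shares within a few percentage points of those at the summits of all genes. AGGTCA, the core element that many nuclear receptors bind, lay within 100 bp of the pooled summit, on either strand, at 2 of the 89 genes (2.25%: mrpl-37 and mrps-14), against 5.13% of all genes with a region. Its extended form AAGGTCA, each match of which is also a match of AGGTCA, was found at 0 of the 89, which allows a share of up to 3.37%, against 1.65% of all genes. GAGAGA, a repeat common in worm promoters, was found at 9 genes (10.1%, against 15.1%). Of these, 4 were among the 19 with a region in every relaxed list, which is 21.1% of the 19. The share over all genes with a region in every relaxed list was not counted. The splice acceptor signal TTTCAG was found at 35.96% of the 89 genes, against 34.3% of all genes, and TATAAA at 17.98%, against 22.1%. The E-box CACGTG was found at 3.37%, against 3.64%. The element TGATAA of endodermal zinc-finger factors was found at 20.2%, against 18.1%. A match is a description of the letters and not a site, and the absence of a match says only that these letters are not in this window. The GC content of these windows had a median of 36.3%, against 35.8% for all genes.

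In the 19 genes with a region in every relaxed list, the replicate signals were only loosely related. Across these 19 genes Pearson's r between the replicate signals was 0.736 and Spearman's rho 0.519, close to 0.725 and 0.464 over all 1584 such genes. Without mrpl-23 the values were 0.423 and 0.434 over 18 genes. With the 14 genes whose summits lie at the same site r was 0.752, and without mrpl-23 it was 0.301 over 13 genes. These are correlations across genes that share both libraries, given as a description, and Pearson's r over the members moved by more than 1.5 times when mrpl-23 was left out.

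**Figure D3:**
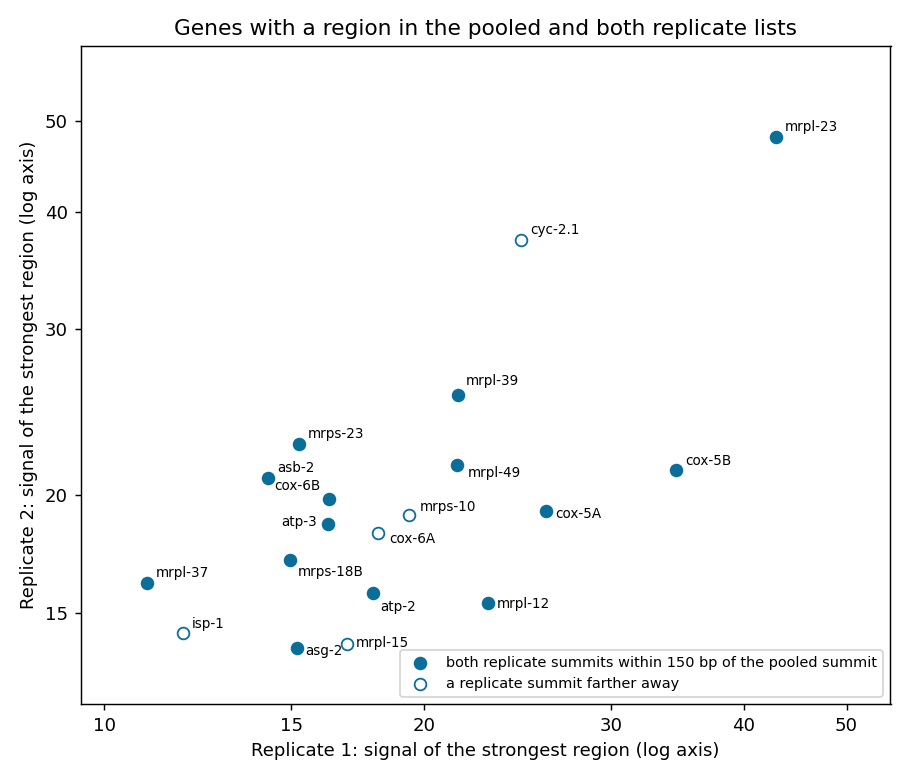
Signal of the strongest region within 1000 bp in replicate 1 (horizontal) and replicate 2 (vertical), both on log axes, for the 19 genes with a region in the pooled and both replicate lists. Open points are the 5 genes where a replicate summit lay more than 150 bp from the pooled summit; mrpl-23 stands apart at the upper right with 42.9 and 48.1.

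Summits near these genes sat close to the 5' end and mostly upstream of it. The median distance was 255 bp (quartiles 134 and 482) over the 89 genes, against 406 bp (192 and 688) over all genes with a region. The summit was upstream in 66 genes (74.2%, against 60.5% of all genes), and within 250 bp in 44 (49.4%, against 32.4%). Upstream summits were found for 33 of 37 respiration genes (89.2%) and 33 of 52 mitochondrial ribosome genes (63.5%). Upstream is meant from the nearest annotated 5' end, and the summits of cyc-2.1 and cox-6B, counted so, lay in an intron of the gene itself. Of the 89 summits, 45 were intergenic, 15 lay in a coding exon, 15 in an intron, 7 in a 3' UTR, 4 in a non-coding RNA gene and 3 in a 5' UTR. The same split was not made for all genes, so it cannot be read as a trait of these genes.

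**Figure D4:**
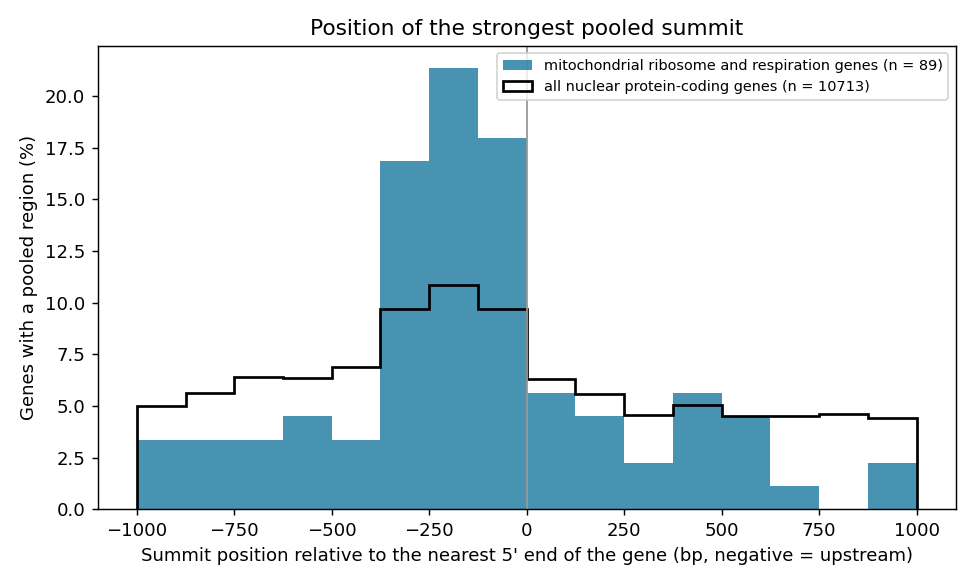
Position of the strongest pooled summit relative to the nearest 5' end of the gene (bp, negative upstream), as a percentage of genes with a region. Filled bars are the 89 mitochondrial ribosome and respiration genes and the outline all 10713 nuclear protein-coding genes with a region; 74.2% and 60.5% of summits are upstream.

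The neighbourhood of these genes differs from that of genes at large, and it moves with the counts above. Another gene's 5' end lay within 1000 bp of 69 of the 115 genes (60%), against 25.3% of all genes. Where one did, 79.7% of these genes and 57.9% of all genes had a pooled region, and where none did, 73.9% and 52.2%. The share was above that of all genes in either case. Whether close neighbours bear on the higher share was not tested. The gene's own 5' end was the nearest to its pooled summit in 62 of 89 cases (69.7%), against 85.4% of all genes with a region. Counting only the nearest gene, 67 genes had a pooled region (58.3%, against 47.7% of all genes), and 12 had one in every list (10.4%, against 6.02%). Which of 2 neighbouring genes a region belongs to was not tested.

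A gene on the same strand that ends within 1000 bp upstream, as genes transcribed together in an operon have, was found for 52 of the 115 genes (45.2%), against 28.9% of all genes. Of these 52 genes 35 had a pooled region (67.3%), compared with 54 of the 63 others (85.7%). Among all genes the shares were 51.8% and 54.4%. The operon annotation itself was not used here.

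The genes were unevenly spread over the chromosomes. Chromosome III held 33 of the 115 (28.7%, against 13.2% of all genes) and chromosome I 28 (24.3%, against 14.4%). On the autosomes 84 of 109 had a pooled region (77.1%, against 53.9% of autosomal genes), and on X 5 of 6 (83.3%, against 52.0% of genes on X).

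Other nuclear genes of mitochondrial function had a similar share of regions. Over 85 genes of 6 further lists, 63 had a pooled region (74.1%) and 18 had one in every relaxed list (21.2%), against the same 53.6% and 7.93% of all genes. In complex I genes with other symbols the numbers were 17 and 5 of 20, in the tricarboxylic acid cycle and pyruvate dehydrogenase 14 and 6 of 20, in protein import 11 and 3 of 15, and in mitochondrial chaperones, proteases and stress response 12 and 4 of 13. Ubiquinone synthesis had 5 and 0 of 8 genes, and the maintenance and expression of mitochondrial DNA 4 and 0 of 9. IDR peaks lay near 2 of the 85: idhg-1, for a subunit of isocitrate dehydrogenase (pooled 81.8, replicate 1 37.3, replicate 2 40.2, at 38 bp upstream), and the complex I subunit gene ndua-2 (65.5, 32.1 and 35.1), whose summit was nearer to dnj-29. The next strongest with a region in every list were the chaperonin gene hsp-60 (54.4) and the inner-membrane translocase gene tim-1 (51.2).

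The genes of the cytosolic ribosome had more and stronger regions than those of the mitochondrial ribosome. Among the 70 mitochondrial ribosome genes, 2 had an IDR peak (2.86%), 52 a pooled region (74.3%) and 9 a region in every relaxed list (12.9%), compared with 8 (9.88%), 74 (91.4%) and 34 (41.98%) of 81 cytosolic ribosomal protein genes. The median pooled signal was 19.8 (quartiles 16.9 and 24.8) at mitochondrial ribosome genes and 28.3 (20.4 and 44.0) at cytosolic ones. The size of this difference was not tested.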

How the data were processed

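ChIP-seq of eGFP-tagged NHR-28 was available as regions from 2 biological replicates of 1 group. Per the labels and the text deposited with the libraries, the authors used a control to call relaxed regions, once for each replicate and once for the pooled reads, and filtered the pooled ones by IDR. The caller, the aligner and the IDR version are not stated in the sources used here, and neither are read totals. The signal of each region is the authors' value on the scale of its own list, so levels were compared within 1 list only. In the replicate lists the authors deposited q-values as −log10, and each region's summit as an offset from its start. Only the ce11 lists were used.

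Gene positions came from Ensembl release 115 (WBcel235) and sequence from RefSeq. A gene's region was the one with the highest signal and a summit within 1000 bp of any annotated 5' end, for protein-coding transcripts. A replicate summit within 150 bp of the pooled summit was taken as the same site. Shares carry Wilson 95% intervals, and a count of 0 allows a share of up to 3 counts of the total. No test was run: there is 1 group, and members are not replicates. The assignment was tested on simulated regions. Python 3.11.15, numpy 2.4.6, pandas 2.3.3, scipy 1.17.1 and matplotlib 3.10.9 were used.

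Named in full are genes with an IDR peak, those with a region in the pooled and both replicate lists, the 5 with the next highest pooled signal and 14 representatives by role. One representative, cco-1, has no gene of that symbol. The genes, lists and motifs were chosen with earlier results of these data known. Alternatives changed the distance, the gene assignment, the regions kept, the replicates and the motif window. Counts of summits covered by both replicates, and alternatives for the 1000 strongest regions, were added after the data were seen.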

Additional observations from a re-analysis of the deposited data

How the results depend on the processing

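Of 38 alternative values, 21 stayed within the bounds set and 17 moved. Within 500 bp instead of 1000 bp, the genes with a region in the pooled and both replicate lists were 12 instead of 19 (10.4%, against 4.69% of all genes), those with an IDR peak 0 instead of 2 (against 0.591%), and the median distance 188 bp instead of 255 bp (against 225 bp). Within 2000 bp these values were 29 (25.2%, against 14.1%), 4 (3.48%, against 1.39%) and 487 bp (against 828 bp). Counting only the nearest gene gave 12 genes in every relaxed list, 0 with an IDR peak and 8 instead of 15 near the 1000 strongest pooled regions (6.96%, against 2.88%); the last was chosen after seeing the data. Leaving out regions at tRNA or snoRNA genes left 1 gene with an IDR peak (0.870%, against 0.686%). The 5000 strongest pooled regions reached 31 genes instead of 89 (27.0%, against 14.4%). With replicate regions of q at most 0.05, 1 gene had a region in every list (0.870%, against 0.531%). Leaving out 1 replicate in turn gave 32 to 47 genes in the remaining 2 lists. These counts combine genes with a region in both replicates (19) with those in replicate 1 only (28) or replicate 2 only (13), beside a pooled region. Over all 19973 genes the same parts were 1584, 4004 and 930. AGGTCA was found at 1 gene within 50 bp and at 4 genes within 200 bp, windows that were not counted over all genes. AAGGTCA was found at 0 (against 1.65% of all genes with a region). The share above that of all genes with a pooled region kept its direction in the settings run, from 65.2% against 36.8% within 500 bp to 58.3% against 47.7% for the nearest gene only. The cause of these shifts was not tested. The search for AGGTCA in RefSeq promoters was not run. No paired analysis was possible because all samples form 1 group. Depth is unknown, most relaxed regions have q-values above 0.05, and an assignment by distance does not show which gene a region acts on.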
